A study of Homo sapiens with 18 samples.

Results

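K562 cells under hyperosmotic shock were compared with untreated K562 cells. K562 is a human line from chronic myeloid leukaemia in blast crisis that makes embryonic and fetal globins. In the KCl 45min group, 110 mM KCl was added to the medium for 45 min, and the CTRL group was left untreated, with 3 biological replicates in each group. These are 6 of the 18 libraries of the series, taken by their treatment label. The question they address is how transcription past gene ends changes under osmotic stress. RNA was taken from chromatin, depleted of polyadenylated RNA and rRNA, ligated to an adapter at its 3′ end and sequenced in full on the PacBio platform. The last base of each read from a nuclear gene thus shows where RNA polymerase II stood. A read counts as a readthrough read when it overlaps the last exon of its gene and ends more than 100 nt beyond it. The transcript of each gene with the most distal end was used. Median lengths of readthrough reads were 1678 to 2187 nt in the 6 libraries. Reads from further downstream that do not reach back to the last exon are not counted, so a lower count need not mean less transcription far past the end. The deposited table gives whole numbers of such reads for 13051 transcripts, of which 9247 had at least 1 readthrough read in the 6 libraries and 3804 had none.

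The depth differed between libraries. The CTRL replicates held 360719, 410442 and 258592 library reads, which leave out polyadenylated reads and splicing intermediates, while the KCl 45min replicates held 410655, 313838 and 1055596. Readthrough reads numbered 76008 over the 6 libraries. KCl 45min replicate 3 was by far the deepest library. Values per gene are therefore given as RPM, the readthrough reads per 1000000 library reads. The median transcript had 2 readthrough reads over the 6 libraries, so that most genes were too sparse for a test of their own, and 378 transcripts with at least 30 reads were tested. The minimum is on raw reads over both groups, so a gene nearly absent from either group passes it only through the other. KCl 45min holds more library reads in total, so genes high there pass more readily, and the counts of calls each way depend on this. Intervals and floors given here cover counting error only.

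Cells in hypertonic medium lose water and shrink. Stress-activated MAP kinases and the transcription factor NFAT5 then raise genes for the uptake and synthesis of small organic osmolytes, and immediate early genes such as EGR1 and FOS are induced within minutes. Hyperosmotic stress is also known to weaken cleavage and termination at many mammalian gene ends, so that polymerase runs on downstream of some genes, while transcription of many other genes is held down.

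After 45 min of KCl, readthrough reads were lost from many genes and gained by a small number of others. Among the genes that fell were MYC, the growth-promoting transcription factor, the kinase gene PIM1, the heme synthesis gene UROD, the tubulin gene TUBB and 13 of 35 tested genes for cytosolic ribosomal proteins (37.1%, beside 20.9% of all tested genes). Among those that rose were EGR1, an immediate early transcription factor, and SLC38A2, which encodes the osmotically regulated amino acid transporter SNAT2, although SLC38A2 stood higher still in the untreated CTRLim libraries. UROD fell from 193 ± 47.0 RPM to 20.7 ± 8.72 RPM and EGR1 rose from 0.924 ± 1.60 RPM to 31.1 ± 6.34 RPM (SD, n = 3 libraries each). The measure mixes transcription with cleavage, since gene body reads were not used here, and a gene gains readthrough reads both when it is transcribed more and when its transcripts are cleaved less.

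Readthrough reads made up 3.33%, 3.32% and 3.55% of the library reads in the CTRL replicates and 2.46%, 2.68% and 2.15% in the KCl 45min replicates. Every KCl 45min library lay below every CTRL library. The 95% Wilson intervals of single libraries, such as 3.26% to 3.37% for CTRL replicate 2 and 2.63% to 2.74% for KCl 45min replicate 2, cover counting error only and not the spread between libraries. The means were 3.399% ± 0.128 and 2.43% ± 0.268 (SD, n = 3 libraries each), a difference of -0.969 percentage points (p = 0.1 in a two-sided exact permutation test, no lower p is possible with 3 libraries on each side). KCl 45min replicate 3, the deepest library, had the lowest share and also the fewest splicing intermediates, at 5.53% of its reads without poly(A), against 12.4% and 8.41% in the other KCl 45min libraries and 13.2%, 16.0% and 8.84% in CTRL. Without that library the difference was -0.829 percentage points, and with the intermediates counted among the library reads it was -0.758 percentage points. Whether depth or intermediates bear on the share was not tested. In the untreated CTRLim libraries, the share was 4.44%, 3.79% and 3.85%. These were prepared with the imatinib samples. Against all 6 untreated libraries the difference was -1.28 percentage points. CTRLim is, however, a separate set of libraries whose shares lie above those of CTRL, and KCl 45min belongs to the set of CTRL alone.

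**Figure D1:**
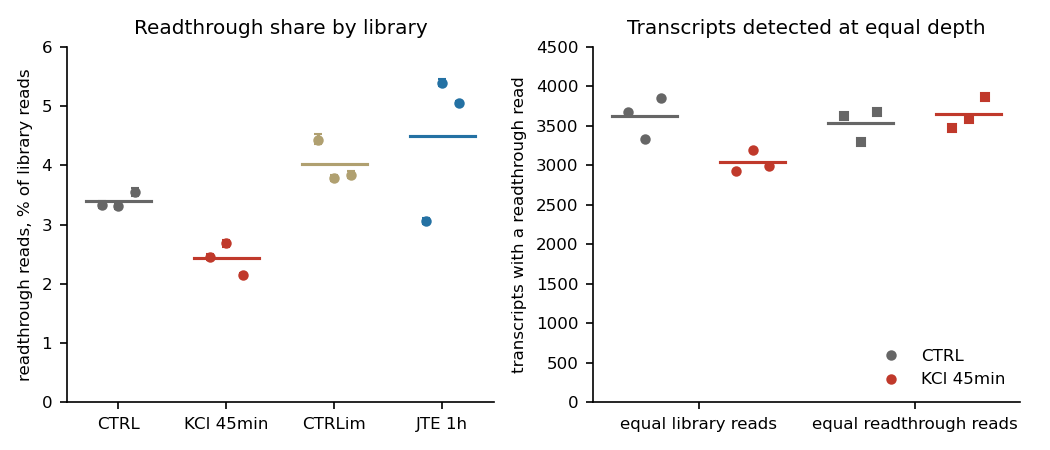
Left, readthrough reads as a percent of library reads in each library of CTRL, KCl 45min, CTRLim and JTE 1h (points with 95% Wilson intervals, lines for the group means); right, transcripts with a readthrough read in CTRL and KCl 45min libraries reduced to 258592 library reads (circles) or to the readthrough reads of the smallest library (squares). The KCl 45min libraries, at 2.15% to 2.68%, lie below all CTRL libraries on the left, and their lower number of transcripts on the right is seen at equal library reads and not at equal readthrough reads.

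Fewer transcripts carried a readthrough read in KCl 45min at the same depth. Reduced to 258592 library reads, the CTRL libraries had 3681, 3333 and 3852 such transcripts and the KCl 45min libraries 2926, 3200 and 2996. The means were 3622 ± 265 and 3041 ± 142 (SD, n = 3 libraries each) and the groups did not overlap (difference -581, exact permutation test, two-sided, p = 0.1). Reduced instead to the same number of readthrough reads, that of KCl 45min replicate 2, the CTRL libraries had 3631, 3298 and 3678 transcripts and the KCl 45min libraries 3477, 3593 and 3870, so that the groups overlapped (difference 111, exact permutation test, two-sided, p = 0.6). The 100 transcripts with most reads took 22.5%, 26.5% and 19.2% of the readthrough reads in CTRL and 26.7%, 23.4% and 18.9% in KCl 45min, a difference of 0.246 percentage points that was well within the spread (exact permutation test, two-sided, p = 0.9) and turned to -0.853 with the top 500 transcripts.

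Across the 378 tested genes, edgeR's quasi-likelihood test (Benjamini-Hochberg, adjusted p under 0.05) called 79 lower (20.9%) and 16 higher (4.23%) in KCl 45min. At an unadjusted p under 0.05, 102 were lower and 25 higher. Libraries of the groups did not overlap in 106 genes that were lower (28%) and in 29 that were higher (7.67%), where chance gives 10% of genes over both directions, and 73 of the lower and 14 of the higher calls were among these. The median log2 fold change of all tested genes was -0.39 on library reads and 0.05 with TMM scaling, a shift of 0.44 that takes out the change shared by most genes. After TMM scaling 50 genes were lower (13.2%) and 25 higher (6.61%), and all 50 of the lower and 16 of the higher were called on library reads too. Without KCl 45min replicate 2 the number called higher was 6 and without CTRL replicate 1 it was 9, and without KCl 45min replicate 3 the number called lower was 46. The 79 lower genes together went from 4138 to 898 mean RPM and the 16 higher genes from 115 to 596. The 8869 transcripts with a read but too few for the test held 21468 ± 2479 RPM in CTRL and 15232 ± 1326 in KCl 45min (SD, n = 3 libraries each), or 71.0% of the CTRL level, beside 72.4% for the tested genes.

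**Figure D2:**
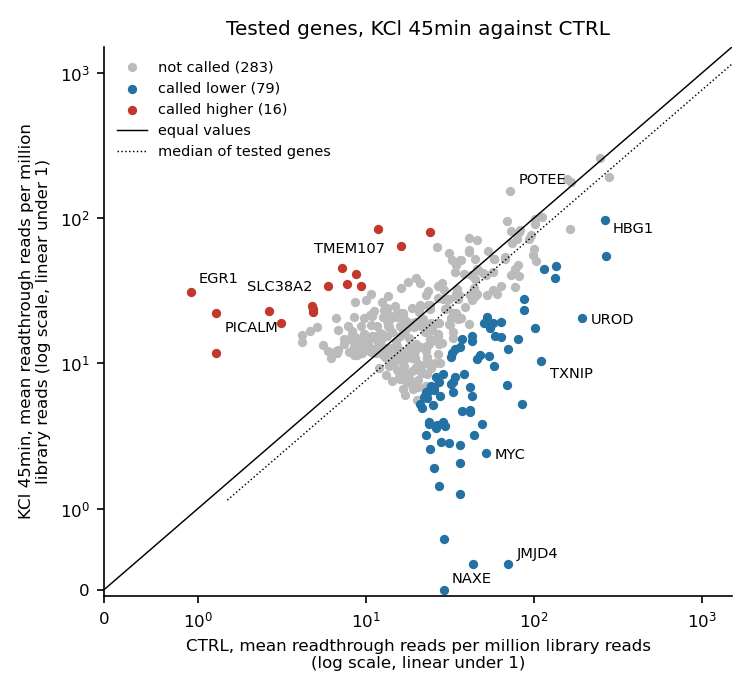
Mean readthrough reads per 1000000 library reads of the 378 tested genes in CTRL (horizontal) and KCl 45min (vertical), both on log scales that are linear under 1, with genes called lower in blue (79), called higher in red (16) and not called in grey. The solid line marks equal values and the dotted line the median log2 fold change of -0.39, which is 0.05 after TMM scaling; blue points lie at all CTRL levels above about 20 RPM, and most red points lie at low CTRL levels.

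MYC (ENST00000621592), a transcription factor that drives growth and the cell cycle, had 23, 22 and 10 readthrough reads in the CTRL libraries and 3, 0 and 0 in the KCl 45min libraries. Reads were thus nearly absent under KCl, and the ratio of pooled reads per library read was 31.7-fold lower, with an exact 95% counting interval of 10.3 to 158. The only KCl 45min reads of MYC were the 3 of replicate 1. CYC1 (ENST00000318911), which encodes cytochrome c1 of respiratory complex III, had 18, 17 and 10 reads in CTRL and 0, 0 and 1 in KCl 45min (77.8-fold lower, exact interval 13.3 to 3140). JMJD4 (ENST00000485807), which encodes a hydroxylase of the translation termination factor eRF1, had 39, 28 and 9 reads and then 0, 0 and 1 (131-fold lower, exact interval 22.9 to 5257). NAXE (ENST00000368235), the gene of an epimerase that repairs damaged NADH and NADPH, had 16, 8 and 6 reads in CTRL and none in KCl 45min, which makes it at least 17.3-fold lower against a floor of 3 reads over the group. The exact 95% limit, which also covers counting error in CTRL, was 13.2-fold. Adjusted p values were 2.41e-08 for JMJD4, 5.14e-07 for CYC1, 3.58e-06 for MYC and 4.81e-06 for NAXE in edgeR's quasi-likelihood test, Benjamini-Hochberg adjusted, and in these genes all 3 KCl 45min libraries lay below all CTRL libraries. JMJD4, CYC1, MYC and NAXE reached the minimum of 30 reads through their CTRL reads alone. Like genes with fewer reads would have gone untested. The last exon of JMJD4 overlaps SNAP47 on the opposite strand and the end of NAXE lies 2 bases from that of GPATCH4 on the opposite strand. The strand on which reads were counted is not stated, so reads of these genes may belong to the neighbour. GPATCH4 (ENST00000368232) itself fell, from 15, 21 and 10 reads to 2, 0 and 5.

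UROD (ENST00000246337), the decarboxylase of the fifth step of heme synthesis, was among the 5 genes with most readthrough in CTRL. It had 169, 163 and 247 RPM in the CTRL libraries and 21.9, 28.7 and 11.4 RPM in the KCl 45min libraries, with a wide gap between the groups. The log2 fold change was -3.31 (standard error 0.552, adjusted p = 6.14e-06 in edgeR's quasi-likelihood test, Benjamini-Hochberg adjusted). TXNIP (ENST00000582401, chromosome 1 of GRCh38, 145992435 to 145996579, minus strand), which encodes an inhibitor of thioredoxin and of glucose uptake, had 63.8, 132 and 135 RPM in CTRL and 2.44, 19.1 and 9.47 RPM in KCl 45min. All 3 KCl 45min libraries were again lower (log2 fold change -3.46, standard error 0.578, adjusted p = 6.14e-06 in the same edgeR test). PIM1 (ENST00000373509, chromosome 6, 37170152 to 37175428, plus strand), a serine/threonine kinase that promotes survival, had 66.5, 46.3 and 92.8 RPM in CTRL and 17.0, 3.19 and 0.947 RPM in KCl 45min. KCl 45min replicate 1 kept the most of its reads, and the groups did not overlap (log2 fold change -3.49, standard error 0.641, adjusted p = 3.65e-05 in the same edgeR test). The calls of these 3 genes held in every alternative that was fitted, and the log2 fold changes lay between -3.60 and -2.83 for UROD, between -4.70 and -2.94 for TXNIP and between -5.26 and -2.60 for PIM1.

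The last 30 bases of the TXNIP and PIM1 transcripts, read 5′ to 3′ from GRCh38, are shown because reads of the assay are counted beyond them. Capitals mark the poly(A) signal AATAAA, which the cleavage complex binds. They lie at chr1:145992435-145992464 on the minus strand for TXNIP and chr6:37175399-37175428 on the plus strand for PIM1.
TXNIP: aaAATAAAgtttttttaatggaaaaaaaaa
PIM1: cgttttttgAATAAAaaccttttgtcttaa
Both ends carry the canonical signal, which is not true of all genes that fell (shares over all tested genes are given further on).

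THAP7 (ENST00000498406), which encodes a chromatin-binding corepressor, went from 130, 80.4 and 42.5 RPM in CTRL to 7.31, 0 and 8.53 RPM in KCl 45min (log2 fold change -3.70, standard error 0.603, adjusted p = 4.86e-06 in edgeR's quasi-likelihood test, Benjamini-Hochberg adjusted, all 3 KCl 45min libraries lower). Its end lies 72 bases from that of LZTR1 on the opposite strand. TUBB (ENST00000327892), a beta tubulin gene, had 49.9, 46.3 and 50.3 RPM in CTRL and 7.31, 3.19 and 0.947 RPM in KCl 45min. The CTRL libraries were close to each other and every KCl 45min library lay below them (log2 fold change -3.91, standard error 0.655, adjusted p = 6.14e-06 in the same edgeR test). The log2 fold change of TUBB was -4.79 without KCl 45min replicate 1 and -3.07 without KCl 45min replicate 3. YDJC (ENST00000415762) had 11, 16 and 10 reads in CTRL and 0, 0 and 4 in KCl 45min, and RPS27A (ENST00000272317), a fusion of ubiquitin and a small-subunit ribosomal protein, had 12, 8 and 9 and then 0, 0 and 2 (25.1-fold lower, exact interval 6.34 to 217). ENST00000330244 and ENST00000558190, picked out after their values were seen and without a match in the annotation, were also called lower, the latter not after TMM scaling. Among genes too sparse for the test, ROMO1, a mitochondrial inner membrane protein gene, had 5, 8 and 5 reads in CTRL and none in KCl 45min (at least 10.4-fold lower against the floor, exact limit 7.60-fold). UQCRFS1, the Rieske iron-sulfur subunit of complex III, had 5, 7 and 3 and then none (at least 8.64-fold lower, exact limit 6.20-fold). MRPL16, for a mitochondrial ribosomal protein, and ID3, for an inhibitor of helix-loop-helix factors, had 14 reads each in CTRL and none in KCl 45min (at least 8.07-fold lower for each, exact limit 5.73-fold).

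EGR1 (ENST00000239938, chromosome 5 of GRCh38, 138465479 to 138469303, plus strand) had 1, 0 and 0 readthrough reads in the CTRL libraries and 10, 10 and 39 in the KCl 45min libraries. These are 24.4, 31.9 and 36.9 RPM under KCl, close together in all 3 libraries and far above CTRL. EGR1, like PICALM, SECISBP2, RPL8 and BTG1, reached the minimum of 30 reads through its KCl 45min reads alone. The ratio of pooled reads per library read was 34.1-fold higher (exact 95% counting interval 5.89 to 1371, adjusted p = 7.42e-05 in edgeR's quasi-likelihood test, Benjamini-Hochberg adjusted). SLC38A2 (ENST00000256689, chromosome 12, 46358188 to 46372773, minus strand), whose transporter carries neutral amino acids that serve as osmolytes, had 2.77, 7.31 and 7.73 RPM in CTRL and 31.7, 41.4 and 28.4 RPM in KCl 45min. The groups were well apart (log2 fold change 2.45, standard error 0.646, adjusted p = 0.00294 in the same edgeR test). The untreated CTRLim libraries, however, had 26, 41 and 50 readthrough reads of SLC38A2, a mean of 96.9 RPM that lies above KCl 45min, and with all 6 untreated libraries as the control the direction turned, to a log2 fold change of -0.63 (adjusted p = 0.559 in the same edgeR test, and between 6.32e-04 and 0.559 over all alternatives). The rise of SLC38A2 is therefore one against CTRL alone. EGR1, by contrast, stood at 3.21 RPM in CTRLim and was called in every alternative.

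PICALM (ENST00000532317), a clathrin assembly gene, had 0, 0 and 1 reads in CTRL and 4, 13 and 16 in KCl 45min (19.1-fold higher, exact interval 3.20 to 777, adjusted p = 0.00228 in edgeR's quasi-likelihood test, Benjamini-Hochberg adjusted, all 3 KCl 45min libraries higher). The last exon of TMEM107 (ENST00000449985), a gene of the ciliary transition zone, holds SNORD118, the U8 small nucleolar RNA. TMEM107 had 8.32, 36.5 and 3.87 RPM in CTRL and 73.1, 79.7 and 38.8 RPM in KCl 45min (log2 fold change 1.81, standard error 0.563, adjusted p = 0.0135 in the same edgeR test, all 3 KCl 45min libraries higher). CTRL replicate 2 came close to KCl 45min replicate 3.

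CKS2 (ENST00000314355), a subunit of cyclin-dependent kinase complexes, had 0, 14.6 and 11.6 RPM in CTRL and 39.0, 47.8 and 36.0 RPM in KCl 45min (log2 fold change 2.17, standard error 0.613, adjusted p = 0.00541 in edgeR's quasi-likelihood test, Benjamini-Hochberg adjusted, all 3 KCl 45min libraries higher). SECISBP2 (ENST00000534113), which binds selenocysteine insertion elements and starts 1797 bases beyond the end of CKS2 on the same strand, had 2, 1 and 0 reads in CTRL and 7, 10 and 21 in KCl 45min (7.33-fold higher, exact interval 2.32 to 37.1). Both genes of this neighbouring pair rose. H3C1 (ENST00000613854), a replication-dependent histone gene 691 bases upstream of H4C1, had 5.54, 9.75 and 7.73 RPM in CTRL and 17.0, 57.4 and 31.3 RPM in KCl 45min. NABP1, for a single-stranded DNA binding protein, went from 9.30 ± 6.05 to 34.3 ± 17.0 RPM, and RPL8, for a large-subunit ribosomal protein, from 4.87 ± 3.07 to 23.7 ± 8.99 RPM (SD, n = 3 libraries each). ENST00000331925 and ENST00000368567, without a match in the annotation, rose from 7.20 ± 6.95 to 45.0 ± 15.4 RPM and from 24.1 ± 21.3 to 80.2 ± 18.6 RPM (SD, n = 3 libraries each).

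Several of these calls were lost when a library was left out, which also leaves the test with fewer libraries. Without KCl 45min replicate 2 the calls of PICALM and SECISBP2 were lost, while the pooled ratios stayed at 14.05-fold (exact interval 2.25 to 582) and 6.55-fold (exact interval 2.02 to 33.7), and the call of CKS2 was lost without CTRL replicate 1 (log2 fold change 1.58). H3C1 missed the threshold without CTRL replicate 1 (1.91) or KCl 45min replicate 2 (1.68). TMEM107 missed it without CTRL replicate 1 (1.49), CTRL replicate 3 (1.43) or KCl 45min replicate 2 (1.61), and ENST00000368567 without the same libraries (1.53, 1.19 and 1.53). NABP1 missed it without CTRL replicate 2 (1.42), KCl 45min replicate 2 (1.80) or KCl 45min replicate 3 (1.65), and RPL8 without CTRL replicate 2 (1.82), CTRL replicate 3 (2.10) or KCl 45min replicate 1 (1.86). Log2 fold changes kept their sign in all of these. EGR1 and ENST00000331925 were called without any of the libraries in turn.

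The ends of EGR1 and SLC38A2 are shown for comparison with those of the genes that fell, together with BTG1, an antiproliferative gene picked out after its values were seen. They are read 5′ to 3′ from GRCh38 up to the last base of the transcript, at chr5:138469274-138469303 on the plus strand, chr12:46358188-46358217 on the minus strand and chr12:92140278-92140307 on the minus strand. Capitals mark AATAAA or ATTAAA.
EGR1: cttccaaaaaATTAAAacgaaAATAAAgta
SLC38A2: gaactaaAATAAAtacatgcttaatcctga
BTG1: ccaagataggAATAAAaaaatgtagttcaa
All 3 ends carry a signal, but the end of TMEM107, which also rose, has neither hexamer in its last 30 bases. BTG1 had 0, 6 and 0 reads in CTRL and 5, 10 and 25 in KCl 45min and was called with overlapping libraries (log2 fold change 1.93, standard error 0.738, adjusted p = 0.0442 in edgeR's quasi-likelihood test, Benjamini-Hochberg adjusted, 2 of 3 KCl 45min libraries above every CTRL library).

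**Figure D3:**
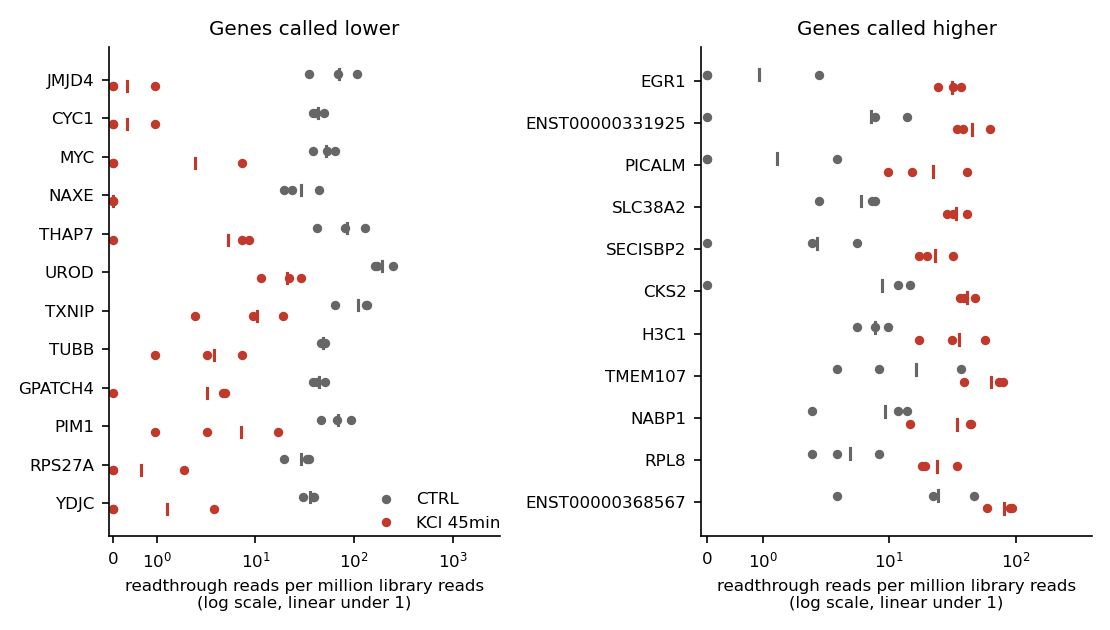
Readthrough reads per 1000000 library reads (log scale, linear under 1) of 12 genes called lower (left) and 11 called higher (right), with a point for each CTRL (grey) and KCl 45min (red) library and a bar for each group mean. UROD lies at 163 to 247 RPM in CTRL and 11.4 to 28.7 RPM in KCl 45min, EGR1 at 0 to 2.77 RPM and 24.4 to 36.9 RPM, and the genes were chosen among those whose groups do not overlap.

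Some genes had no readthrough read in CTRL but were too sparse for the test. FOS, the partner of JUN in the AP-1 transcription factor, had 2, 0 and 13 reads in KCl 45min (at least 2.89-fold higher against a floor of 3 reads over the group, exact 95% limit 2.07-fold). C1orf116 had 0, 3 and 18 (at least 4.05-fold, exact limit 3.01-fold), RIF1, which guides replication timing and DNA repair, 3, 8 and 9 (at least 3.86-fold, exact limit 2.86-fold), the nuclear import receptor gene IPO11 4, 0 and 12 (at least 3.09-fold, exact limit 2.23-fold), and the ribosomal protein gene RPS20 1, 3 and 10 (at least 2.70-fold, exact limit 1.92-fold). Only RIF1 and RPS20 of these had reads in every KCl 45min library. POTEE, an actin-related gene of a family of near copies, showed the largest gain in reads, from 77.6, 68.2 and 69.6 RPM in CTRL to 190, 118 and 154 RPM in KCl 45min. Its libraries did not overlap but it missed the threshold (log2 fold change 1.10, standard error 0.489, adjusted p = 0.0982 in edgeR's quasi-likelihood test, Benjamini-Hochberg adjusted), while after TMM scaling it was called (log2 fold change 1.54). The last exon of POTEE lies within PLEKHB2 on the same strand, and reads of the family are hard to place, so the source of these reads is uncertain. The same holds for ENSG00000257390, picked out after its values were seen, which rose and lies within SARNP, and for NDUFB9, which rose from 2, 0 and 1 reads to 7, 9 and 12 and overlaps MTSS1 on the opposite strand. CPED1, picked out after its values were seen, was called higher on 0, 3 and 27 reads in KCl 45min, nearly all from replicate 3.

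Immediate early and acute stress genes changed in both directions. Of the 54 in the table, 10 were tested, of which 2 rose (EGR1 and BTG1) and 4 fell (MYC, TXNIP, PIM1 and GADD45A), against 4.23% and 20.9% of all tested genes. The median log2 fold change of the 10 was 0.05, against -0.39 for all tested genes, and 0.49 after TMM scaling, against 0.05. GADD45A, a growth arrest and DNA damage gene, had 10, 19 and 5 reads in CTRL and 1, 1 and 3 in KCl 45min, and, like BTG1, was named after its values were seen. The summed readthrough of the list was 460, 504 and 576 RPM in CTRL and 270, 322 and 281 RPM in KCl 45min, with no overlap. In a split formed after seeing the data, the 4 genes that fell summed to 262 ± 35.0 RPM in CTRL and 22.7 ± 8.35 RPM in KCl 45min (SD, n = 3 libraries each). The other 50 had 238, 227 and 290 RPM in CTRL and 241, 296 and 268 RPM in KCl 45min. They include EGR1 and BTG1, which rose, and sparse genes with fewer reads under KCl, such as ID3 and BHLHE40. Since the split followed the calls, it cannot show where the change of the list lay. Of the 26 osmolyte and volume transport genes in the table, 21 had a read but SLC38A2 alone reached the minimum for the test. Their sum was 27.7, 63.3 and 73.5 RPM in CTRL and 105, 131 and 78.6 RPM in KCl 45min, so that every KCl 45min library lay above every CTRL library. The full separation needed SLC38A2. Without it, a sum formed after seeing the data, the list had 24.95, 56.0 and 65.7 RPM in CTRL and 73.1, 89.2 and 50.2 RPM in KCl 45min, so that 2 of 3 KCl 45min libraries still lay above every CTRL library. Of the 223 solute carrier genes, which include SLC38A2, 5 were tested, with 1 call each way beside 4.23% higher and 20.9% lower of all tested genes. SLC38A2 rose and SLC35A4, a nucleotide sugar transporter gene, fell, with a log2 fold change of -1.86, and -1.35 after TMM scaling, when its call was lost. The median of the 5 was -1, and -0.58 after TMM scaling. SLC35A4 also missed the threshold without CTRL replicate 1 (-1.76), CTRL replicate 2 (-1.78), KCl 45min replicate 2 (-1.53) or KCl 45min replicate 3 (-2.34).

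Heat shock and chaperone genes gave no call, with 0 of 6 tested genes in either direction by edgeR's quasi-likelihood test, beside 20.9% lower and 4.23% higher of all tested genes. Their median log2 fold change of -0.04 flipped to 0.39 after TMM scaling. HSPA8, the constitutive cytosolic chaperone, had 85.9, 85.3 and 73.5 RPM in CTRL and 105, 79.7 and 55.9 RPM in KCl 45min (log2 fold change -0.05, standard error 0.478). HSP90AB1, the constitutive HSP90 gene, had 45.9 ± 14.4 RPM in CTRL and 29.8 ± 6.36 RPM in KCl 45min (SD, n = 3 libraries each). The sum over all 41 genes of this list was nonetheless lower in every KCl 45min library, at 305, 290 and 394 RPM in CTRL and 270, 236 and 186 RPM in KCl 45min, as was the sum over all transcripts. Members too sparse for the test differed in both directions. CCT5 had 25 reads in CTRL and 2 in KCl 45min and HSPA1A 2 and 10, both picked out after their values were seen. Among the genes of 3′ end processing and termination, 29 of 31 had a read and 0 reached the minimum for the test, and their sum was 55.4, 70.7 and 159 RPM in CTRL and 53.6, 66.9 and 40.7 RPM in KCl 45min, with overlap. Of the Integrator subunit genes INTS4 alone was tested, and it was not called (log2 fold change -0.11 on library reads and 0.24 after TMM scaling).

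Cytosolic ribosomal protein genes had the most genes called lower of all the lists, and also the most tested members. By share, globin (100% of 2 tested), erythroid and heme synthesis (50% of 4) and immediate early genes (40% of 10) stood higher. Of 72 ribosomal protein genes in the table, 35 were tested, of which 13 fell (37.1%) and 1, RPL8, rose. The share that fell, 13 of 35, exceeded the 20.9% of all tested genes, and the median log2 fold change was -1.18, against -0.39. After TMM scaling 10 fell (28.6%, beside 13.2% of all tested genes) and 1 rose (2.86%, beside 6.61%). The median was then -0.71, against 0.05. RPL35 had 52.7, 21.9 and 50.3 RPM in CTRL and 7.31, 3.19 and 3.79 RPM in KCl 45min (log2 fold change -3.08, standard error 0.624, adjusted p = 1.31e-04 in edgeR's quasi-likelihood test, Benjamini-Hochberg adjusted, all 3 KCl 45min libraries lower). RPS25 went from 29.4 ± 8.64 to 3.70 ± 3.31 RPM and RPS26 from 28.9 ± 13.2 to 3.95 ± 0.853 RPM (SD, n = 3 libraries each). Summed over all 72 genes, readthrough was 1422, 1562 and 1520 RPM in CTRL and 938, 857 and 759 RPM in KCl 45min. The libraries of each group were close to each other and the groups far apart.

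Replication-dependent histone genes, whose transcripts end at a stem-loop without a poly(A) tail, had 34 tested members, of which 9 fell (26.5%, beside 20.9% of all tested genes) and 1, H3C1, rose. Their median log2 fold change was -1.01, and -0.58 after TMM scaling. At that scaling 2 rose (5.88%, beside 6.61% of all) and 3 fell (8.82%, beside 13.2% of all). H3C10 had 66.5, 141 and 54.1 RPM in CTRL and 31.7, 22.3 and 16.1 RPM in KCl 45min (log2 fold change -1.97, standard error 0.517, adjusted p = 0.00291 in edgeR's quasi-likelihood test, Benjamini-Hochberg adjusted, all 3 KCl 45min libraries lower), and missed the threshold without CTRL replicate 2 (-1.42). The linker histone gene H1-2 went from 58.4 ± 31.7 to 15.4 ± 14.4 RPM and H2AC13 from 134.8 ± 66.0 to 46.6 ± 18.5 RPM (SD, n = 3 libraries each). H1-2 missed the threshold without CTRL replicate 2 (-1.63) or KCl 45min replicate 3 (-1.57), and H2AC13 without CTRL replicate 1 (-1.56), CTRL replicate 2 (-1.23), KCl 45min replicate 2 (-1.83) or KCl 45min replicate 3 (-1.26). CTRL replicate 2 had the highest histone sum, 2882 RPM, beside 1713 and 1063 RPM in the other CTRL libraries and 1313, 1756 and 846 RPM in KCl 45min, so the sums of the groups overlapped.

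**Figure D4:**
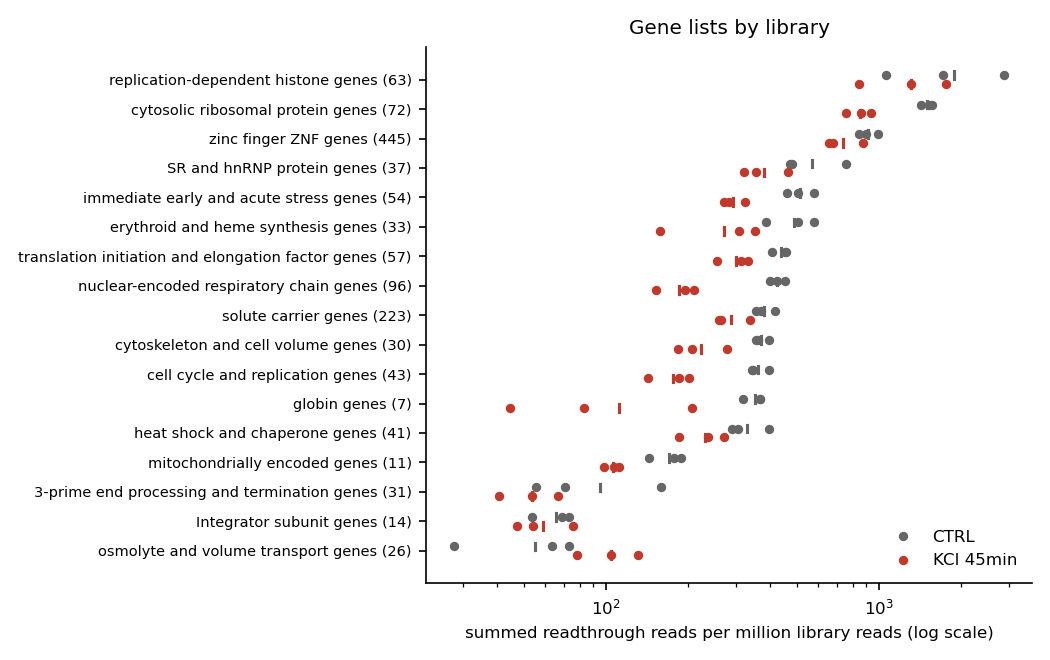
Summed readthrough reads per 1000000 library reads (log scale) over the genes of each list, whose number in the table stands in parentheses, with a point for each CTRL (grey) and KCl 45min (red) library and a bar for each group mean. Ribosomal protein genes lie at 1422 to 1562 RPM in CTRL and 759 to 938 RPM in KCl 45min, histone genes overlap, and osmolyte and volume transport genes lie at 78.6 to 131 RPM in KCl 45min, above all CTRL libraries, which holds only with SLC38A2 in the sum.

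Globin genes, the main product of erythroid cells, had 2 tested members and both fell, beside 20.9% of all tested genes. Their median log2 fold change was -2.04, against -0.39. After TMM scaling it was -1.66, and 1 was called lower, beside 13.2% of all tested genes. HBE1, the embryonic globin, had 80.4, 82.8 and 46.4 RPM in CTRL and 19.5, 12.7 and 5.68 RPM in KCl 45min (log2 fold change -2.61, standard error 0.555, adjusted p = 2.31e-04 in edgeR's quasi-likelihood test, Benjamini-Hochberg adjusted, all 3 KCl 45min libraries lower). HBG1, a fetal globin, had 219, 266 and 302 RPM in CTRL and 188, 66.9 and 36.0 RPM in KCl 45min. KCl 45min replicate 1 stood near the CTRL level, and without it the log2 fold change of HBG1 was -2.40, beside -1.46 with it. The HBG1 call was lost after TMM scaling and without CTRL replicate 1 (-1.57), CTRL replicate 2 (-1.45), CTRL replicate 3 (-1.35), KCl 45min replicate 2 (-1.27) or KCl 45min replicate 3 (-1.02). ENSG00000239920, with 268 ± 76.5 RPM in CTRL and 54.6 ± 54.6 RPM in KCl 45min (SD, n = 3 libraries each), fell too, and missed the threshold without KCl 45min replicate 2 (-2.10), but its last exon and the end of HBE1 lie within annotated transcripts of HBG2, so reads of the cluster are hard to assign. Among erythroid and heme synthesis genes 4 were tested and 2 fell, UROD among them, a small number to set beside the 20.9% of all tested genes. The median of the 4 was -1.43, and -0.97 after TMM scaling.

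Nuclear-encoded respiratory chain genes had only 4 tested members, of which CYC1 fell and NDUFB9 rose (25% each way, beside 20.9% lower and 4.23% higher of all tested genes), with a median log2 fold change of 0.52, and 0.99 after TMM scaling. NDUFB9 missed the threshold without CTRL replicate 2 or KCl 45min replicate 2, with pooled ratios of 3.25-fold (exact interval 1.00 to 16.7) and 4.45-fold (exact interval 1.31 to 23.5), beside 5.40-fold with all libraries. Over all 96 genes of this list, most of them too sparse for a test, the sum was 452, 400 and 422 RPM in CTRL and 195, 210 and 153 RPM in KCl 45min, so that the groups were far apart and the tested members do not stand for the list. Of the mitochondrially encoded genes 3 were tested and 0 called by edgeR's quasi-likelihood test. This is too few to set against the 20.9% lower and 4.23% higher of all tested genes. The median of the 3 was -0.45, close to 0 after TMM scaling (-0.005), and it flipped to 0.04 with total readthrough reads as the scale. The sum over 11 genes was 188.5, 144 and 178 RPM in CTRL and 107, 112 and 98.5 RPM in KCl 45min, without overlap. Reads of these genes do not show the position of RNA polymerase II, which transcribes nuclear genes. MT-ND5, a complex I subunit, had 51.7 ± 8.66 RPM in CTRL and 40.5 ± 9.13 RPM in KCl 45min, and MT-CO1, a complex IV subunit, 35.4 ± 11.4 and 20.04 ± 6.34 RPM (SD, n = 3 libraries each).

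Among genes for SR and hnRNP proteins, which bind pre-mRNA and steer splicing, 16 were tested, and 3 fell (18.8%, near the 20.9% of all tested genes) and 0 rose. Their median log2 fold change of -0.31 flipped to 0.16 after TMM scaling. At that scaling 0 fell and 1 rose, beside 13.2% and 6.61% of all tested genes. The genes that fell on library reads were TRA2B, from 9, 8 and 8 reads to 2, 1 and 8 in libraries of which the last is the deepest, HNRNPF, from 57.1 ± 21.8 to 19.0 ± 16.8 RPM, and HNRNPA1, from 32.4 ± 11.3 to 11.8 ± 1.21 RPM (SD, n = 3 libraries each). HNRNPF missed the threshold without CTRL replicate 3 (-1.40), KCl 45min replicate 1 (-1.38) or KCl 45min replicate 3 (-1.36), and HNRNPA1 missed it without any of the libraries other than CTRL replicate 2 (between -1.52 and -1.16). TRA2B kept its call without any of the libraries in turn. Of the 6 tested translation initiation and elongation factor genes 0 were called by edgeR's quasi-likelihood test (median -0.71, and -0.25 after TMM scaling). Of all tested genes 20.9% were called lower and 4.23% higher. EEF1A1, a member of this list, had 94.3, 119 and 88.9 RPM in CTRL and 85.2, 115 and 73.9 RPM in KCl 45min. EIF4A2, a helicase of the initiation complex, had 98.7 ± 22.3 RPM in CTRL and 56.1 ± 10.9 RPM in KCl 45min (SD, n = 3 libraries each), without overlap but short of the threshold.

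Of the cell cycle and replication genes 3 were tested, too few to set against the 20.9% of all tested genes called lower, and MCM7, a subunit of the replicative helicase, fell from 99.8, 105 and 101 RPM in CTRL to 26.8, 12.7 and 13.3 RPM in KCl 45min (log2 fold change -2.55, standard error 0.521, adjusted p = 1.47e-04 in edgeR's quasi-likelihood test, Benjamini-Hochberg adjusted, all 3 KCl 45min libraries lower). The median of the 3 was -0.67, and -0.26 after TMM scaling, when 1 was called higher beside MCM7, and the sum over all 43 genes was 361 ± 28.6 RPM in CTRL and 177 ± 30.4 RPM in KCl 45min (SD, n = 3 libraries each). Among 5 tested cytoskeleton and cell volume genes TUBB alone fell, a share like the 20.9% of all tested genes, and the median of -0.41 was close to 0 after TMM scaling (-0.003) and flipped to 0.07 with total readthrough reads as the scale. Of the 7 tested ZNF genes 0 were called on library reads by edgeR's quasi-likelihood test, beside 20.9% lower and 4.23% higher of all. The ZNF median of -0.18 flipped to 0.24 after TMM scaling. ZNF460 had 19.4, 14.6 and 19.3 RPM in CTRL and 36.5, 35.0 and 36.9 RPM in KCl 45min. It was short of the threshold on library reads (log2 fold change 1.03). After TMM scaling it was called higher, as were 6.61% of all tested genes. PRAME, a tumour antigen gene expressed in K562, fell from 144, 117 and 135 RPM to 51.1, 38.2 and 27.5 RPM (log2 fold change -1.79, standard error 0.496, adjusted p = 0.00487 in the same edgeR test, all 3 KCl 45min libraries lower).

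Calls of a loss of readthrough were more frequent among short genes and among genes with a convergent neighbour, though 35 of the genes that fell span 5000 bases or more and 42 have no such neighbour. Of the 361 tested genes with an annotation match, 77 fell (21.3%). Among the 133 genes that span under 5000 bases 42 fell (31.6%), among the 130 of 5000 to under 20000 bases 28 fell (21.5%), and among the 98 of 20000 bases or more 7 fell (7.14%). The median log2 fold changes in these classes were -0.78, -0.49 and 0.16. Where a convergent protein-coding gene ended or overlapped within 5000 bases past the end, 35 of 114 genes fell (30.7%), against 42 of 247 without such a neighbour (17.0%). Where the last exon or the counted region lies in another gene on the same strand, 10 of 108 genes fell (9.26%). Of 71 genes whose last exon overlaps a gene on the opposite strand 21 fell (29.6%), and of 119 genes with no gene on either strand within 5000 bases 28 fell (23.5%), close to the share of all. Calls of a rise were spread over the classes, with 5 of 133 short genes (3.76%) and 5 of 98 long genes (5.10%). These counts were not tested, and the span classes differ in their level, with median CTRL values of 30.4, 21.5 and 16.2 RPM from the shortest to the longest.

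**Figure D5:**
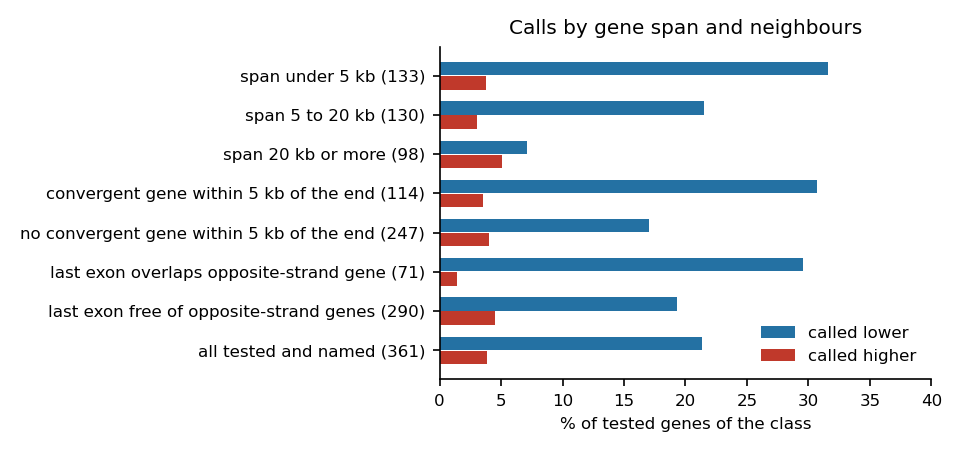
Percent of tested genes called lower (blue) and called higher (red) in KCl 45min, by gene span, by convergent neighbours within 5000 bases past the end and by overlap of the last exon with a gene on the opposite strand, with the number of tested genes in parentheses. The share called lower goes from 31.6% in the shortest genes to 7.14% in the longest, and the share called higher lies between 1.41% and 5.10% in all classes.

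A poly(A) signal, AATAAA or ATTAAA on the transcribed strand, was found within the last 40 bases of 44 of the 77 genes that fell (57.1%), 12 of the 14 matched genes that rose (85.7%) and 158 of the 270 genes not called (58.5%), beside 72.7% of all 12704 matched transcripts. The 300 bases past the end had a median GC content of 46% in genes that fell, 40.2% in genes that rose and 42.3% in genes not called. With 14 genes, these values for genes that rose are a description and were not tested.

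Levels of the same genes in other libraries of the series are given for orientation, with no test. In JTE 1h, cells given 5 µM JTE-607, an inhibitor of the CPSF73 endonuclease, EGR1 had 5.86 ± 5.16 RPM, SLC38A2 29.1 ± 25.3 RPM, with no read in JTE 1h replicate 1, and MYC 26.9 ± 20.2 RPM (SD, n = 3 libraries). In the untreated CTRLim libraries EGR1 had 3.21 ± 2.87 RPM and MYC 67.0 ± 13.7 RPM. TUBB stood at 87.7 ± 41.3 RPM in JTE 1h and 85.1 ± 13.2 RPM in CTRLim, and MCM7 at 149.6 ± 50.3 and 137 ± 16.8 RPM (SD, n = 3 libraries each), so that KCl 45min was the lowest of these groups for both. TXNIP varied widely between untreated groups, with 110.2 ± 40.3 RPM in CTRL and 414 ± 71.1 RPM in CTRLim, and KCl 45min at 10.3 RPM lay below both. CTRLim was prepared as another set of libraries, so the set and the group cannot be told apart in these values.

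The identity of the cells was checked by marker genes. Of 11 defining K562 genes in the table, 10 had a readthrough read, with 404 reads in CTRL and 211 in KCl 45min, most of them from HBG1 with 402. T cell markers had 2 and 1 reads, B cell markers 0 and 2, monocyte and fibroblast markers none in either group, and the epithelial list 10 and 15, of which 13 came from KRT8, which K562 also transcribes. All values are per library read, so neither the number of cells nor the amount of nascent RNA per cell was measured. Among the 5 genes with most readthrough in CTRL, ENSG00000251184, which lies within NUP188, had 288, 258 and 286 RPM in CTRL and 236, 210 and 131 RPM in KCl 45min without reaching the threshold, and ACADM, which ends within RABGGTB, had 248 ± 93.0 and 260.5 ± 110.2 RPM (SD, n = 3 libraries each).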

How the data were processed

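The authors used cutadapt for adapters and minimap2 for mapping to GRCh38.p14, and removed duplicates by molecular identifiers, polyadenylated reads, reads without a unique place and splicing intermediates. The deposited values are counts of readthrough reads for each library and were not normalized. The strand of counting is not stated. Library reads came from the totals that the study lists for each library. Members and lists were chosen with earlier results of these data known.

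Transcripts were matched by identifier to GENCODE 44, which found 12704 of 13051 and left 347 without a name. Genes with at least 30 reads over the 6 libraries were tested with edgeR 4.0.16 (quasi-likelihood, library reads as library sizes, R 4.3.3) and Benjamini-Hochberg adjustment, tested on simulated data. Single values were compared by exact permutation over libraries. Numbers of transcripts at equal depth are exact expected values. Ratios of pooled reads have exact conditional intervals. List medians were the same with genes of at most 3 reads in a group set at their ratio or bound.

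Genes are named from those that a rule selects: the 12 called genes with the smallest adjusted p and no overlap in each direction, the 5 highest in CTRL, up to 4 called members of each list or else 1 or 2 with most reads, up to 5 absent from each group, and up to 5 with the largest difference of means in each direction. Others were picked after their values were seen. Alternatives changed the scaling (TMM, readthrough totals, mapped reads), the minimum of reads, the tool (DESeq2 1.42.0), the libraries in the fit, the control, a replicate block, read length as a covariate, and left out each library in turn. Chosen after seeing the data were the restriction to last exons clear of other genes, the osmolyte list without SLC38A2, the immediate early list split by call and thinning to equal depth for the share of the top 100. Tables were made with pandas 2.3.3 and scipy 1.17.1, figures with matplotlib 3.10.9, in Python 3.11.15 with numpy 2.4.6.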

Additional observations from a re-analysis of the deposited data

How the results depend on the processing

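Of the 41 called genes among the 53 with a fit that the naming rule selects, 20 were past the threshold in every alternative that fitted them. SLC38A2 turned direction with 6 untreated libraries as the control (-0.63). The number of genes called higher was 25 after TMM scaling, 33 with a minimum of 10 reads, 9 with 60, 8 with no minimum, 10 with DESeq2 on library reads, and 9 for last exons clear of other genes, an alternative chosen after seeing the data that tested 198 genes. Leaving out each library gave 6 to 14. The number called lower was 50 after TMM scaling, 44 with readthrough totals as library sizes, 223 with a minimum of 10 reads (1885 genes tested), 27 with 60 (136 tested), 32 with DESeq2's own size factors and 52 for last exons clear of other genes. Leaving out each library gave 46 to 76.

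The readthrough share differed by -0.969 percentage points, by -1.28 with 6 untreated libraries as the control, which pools CTRL with CTRLim, a separate set with higher shares, and by -1.10 to -0.829 when each library was left out. Whether the replicate numbers pair the libraries is not stated and was not tested. Correlations were 0.301, 0.0367 and 0.225 between same-numbered deviations and ran from -0.343 to 0.173 between others. With the replicate as a block the difference in the share was the same (exact permutation p = 0.25). Transcripts at equal depth differed by 111 at equal readthrough reads, in the opposite direction, and by -726 to -466 when each library was left out at equal library reads. The share of the top 100 turned to -0.853 with the top 500, and ranged from -1.59 to 2.31 when each library was left out, with -1.52 without CTRL replicate 3 and -1.59 without KCl 45min replicate 1.

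Limits: 3 libraries a group cannot reach an exact p under 0.1, 8869 transcripts with a read had too few for a test, and gene body reads did not enter these values. Reads from far downstream that do not overlap the last exon were not counted either. Where genes overlap, the authors kept for each read the gene it covered most, and whether strand entered is not stated, so the assignment of such reads is uncertain.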
